A study of Homo sapiens with 6 samples.

Results

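The 7 genes described here, FZD1, FZD2, FZD5, FZD7, FZD8, FZD9 and FZD10, encode Frizzled proteins, the receptors that bind WNT ligands at the cell surface. Each gene was represented by 1 window on genome build hg19, of 22 to 27 kb, and every peak that overlapped a window was taken as a member. The 7 windows held 75 of the 142800 peaks in the 4 deposited lists. Of these, 22 were H3K4me3 peaks of Boost-Chir cultures and 31 of Low-Chir cultures, while 3 were H3K27me3 peaks of Boost-Chir and 19 of Low-Chir.

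The cells descend from H9 (WA-09), a widely used line of human embryonic stem cells, and were collected as midbrain dopamine neural progenitors on day 11. In ChIP-seq, DNA bound to an immunoprecipitated protein is sequenced, and here each culture gave 1 library for H3K4me3, found at active and poised promoters, and 1 for H3K27me3, the mark laid down by Polycomb. CHIR99021 inhibits the kinase GSK3 and so activates WNT signalling below the receptor. Boost-Chir cultures received 7.5 µM of it from day 4 until day 10. The concentration that Low-Chir cultures received in that interval is not stated in the labels, where 0.7 µM is the lowest one listed. Both cultures began in 0.7 µM CHIR99021 with SHH C25II, LDN, SB431542 and the Rock inhibitor Y-27632. LDN, SB431542 and SHH were withdrawn on day 7. From day 10 both were in a medium with 3 µM CHIR99021, GDNF, BDNF, TGFβ3, ascorbic acid and dibutyryl cAMP. All samples come from 1 cell line, with 1 library per mark and culture, so there is no replicate, no difference was tested and no p-value is given. No peak outside the 7 windows was assigned to a gene, so the labelled cell type was not checked against markers. In bulk chromatin, fewer cells carrying a mark and less of the mark in each cell cannot be told apart.

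Frizzled proteins span the membrane several times and hold WNT in an extracellular cysteine-rich domain. With the co-receptors LRP5 and LRP6 they recruit Dishevelled proteins, which stops the complex around AXIN and GSK3 from degrading β-catenin, and β-catenin then acts with TCF and LEF factors on target genes. By sequence FZD1, FZD2 and FZD7 form a subfamily, FZD5 and FZD8 another, and FZD9 and FZD10 belong to a further one. In the vertebrate neural tube the receptors differ in where they are made, and WNT signalling helps to pattern the midbrain.

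Promoter sequences are shown for 3 members that differ in their marks: FZD1, with a long stretch of H3K4me3, FZD8, with H3K27me3 inside its H3K4me3 in Low-Chir, and FZD9, with hardly any of either mark. They are the 250 bases before the gene start in RefSeq, build GRCh38.p14, where 4 of the 7 members were matched (FZD1, FZD5, FZD8 and FZD9). They run 5′ to 3′ along the gene, and capitals mark CpG dinucleotides, which are dense in promoters that carry H3K4me3. Their positions belong to another build than the peaks and were not compared with them. FZD1 lies at chr7:91264183-91264432 on the plus strand, FZD8 at chr10:35642297-35642546 on the minus strand and FZD9 at chr7:73433528-73433777 on the plus strand.
FZD1: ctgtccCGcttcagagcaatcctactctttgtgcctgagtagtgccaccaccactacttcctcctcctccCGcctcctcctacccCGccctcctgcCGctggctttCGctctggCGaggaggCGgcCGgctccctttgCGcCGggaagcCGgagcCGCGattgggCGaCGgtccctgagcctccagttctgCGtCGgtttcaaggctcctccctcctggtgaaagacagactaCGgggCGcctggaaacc
FZD8: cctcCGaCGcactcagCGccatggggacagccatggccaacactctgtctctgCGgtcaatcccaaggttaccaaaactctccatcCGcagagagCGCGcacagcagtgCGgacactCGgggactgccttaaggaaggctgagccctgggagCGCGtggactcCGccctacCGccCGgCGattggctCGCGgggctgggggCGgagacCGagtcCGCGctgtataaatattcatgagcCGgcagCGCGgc
FZD9: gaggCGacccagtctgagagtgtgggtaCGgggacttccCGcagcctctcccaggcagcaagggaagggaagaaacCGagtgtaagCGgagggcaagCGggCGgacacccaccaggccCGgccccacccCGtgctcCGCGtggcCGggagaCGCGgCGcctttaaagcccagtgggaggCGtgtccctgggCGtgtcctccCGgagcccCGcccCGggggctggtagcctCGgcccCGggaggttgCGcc

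The FZD1 sequence held 19 CpG dinucleotides, FZD8 24, FZD9 23 and FZD5 30, against a median of 11 over the 35116 promoters of that table. The member with almost no H3K4me3, FZD9, thus had more CpG dinucleotides than FZD1. GC content was 65.2% at FZD1 and FZD8, 72.4% at FZD9 and 76.8% at FZD5, against a median of 58.0%. On both strands, the letters CTTTGT, a core bound by TCF and LEF factors, were found at FZD1 only among the 4, beginning 224 bases before the start, and in 13.7% of all promoters of this length. CTTTGA, the other form of that core, was at none of the 4 and in 11.2% of all. TATAAA was found at FZD8 alone, 29 bases before the start, and in 10.7% of all, and GGGCGG, the GC box, at each of the 4 and in 42.6% of all. Matches of different motifs did not overlap, while a pair of GC boxes at FZD5 shared 1 base.

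The H3K4me3 library was 1.21 times as deep in Boost-Chir as in Low-Chir and the H3K27me3 library 0.971 times, by the genome-wide background recovered from the lists. Over the genome H3K4me3 peaks covered 49.7 Mb in Boost-Chir and 38.5 Mb in Low-Chir, and H3K27me3 peaks 18.8 Mb and 20.9 Mb. As a background, a window of 23 kb was placed on each of the 16580 H3K4me3 loci of the genome. Neighbouring windows can overlap, and those at the 7 genes are among them. At the median of windows marked in both cultures, the covered length in Boost-Chir was 1.28 times that in Low-Chir for H3K4me3 and 0.920 times for H3K27me3. Differences at a Frizzled gene are set beside these shifts, whose part in them was not tested. A length of 0 means that no peak passed the threshold of the list, whose lowest −log10 q was between 1.31 and 1.37, and not that the mark is absent.

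H3K4me3 was present at all 7 genes in both cultures, but in very different amounts. The length covered by H3K4me3 peaks in a window had a median of 6.99 kb in Boost-Chir, with 0.472 kb at FZD9 and 10.9 kb at FZD10 as its ends. In Low-Chir the median was 5.77 kb, with 0.433 kb at FZD9 and 9.25 kb at FZD7 as its ends. From longest to shortest, the order in Boost-Chir was FZD10, FZD7, FZD2, FZD1, FZD8, FZD5 and FZD9. The order in Low-Chir was FZD7, FZD2, FZD8, FZD10, FZD1, FZD5 and FZD9. FZD10 thus stood at the first place in Boost-Chir and at the fourth in Low-Chir, while FZD5 and FZD9 closed both orders. Without replicates, neighbours in these orders cannot be separated.

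**Figure D1:**
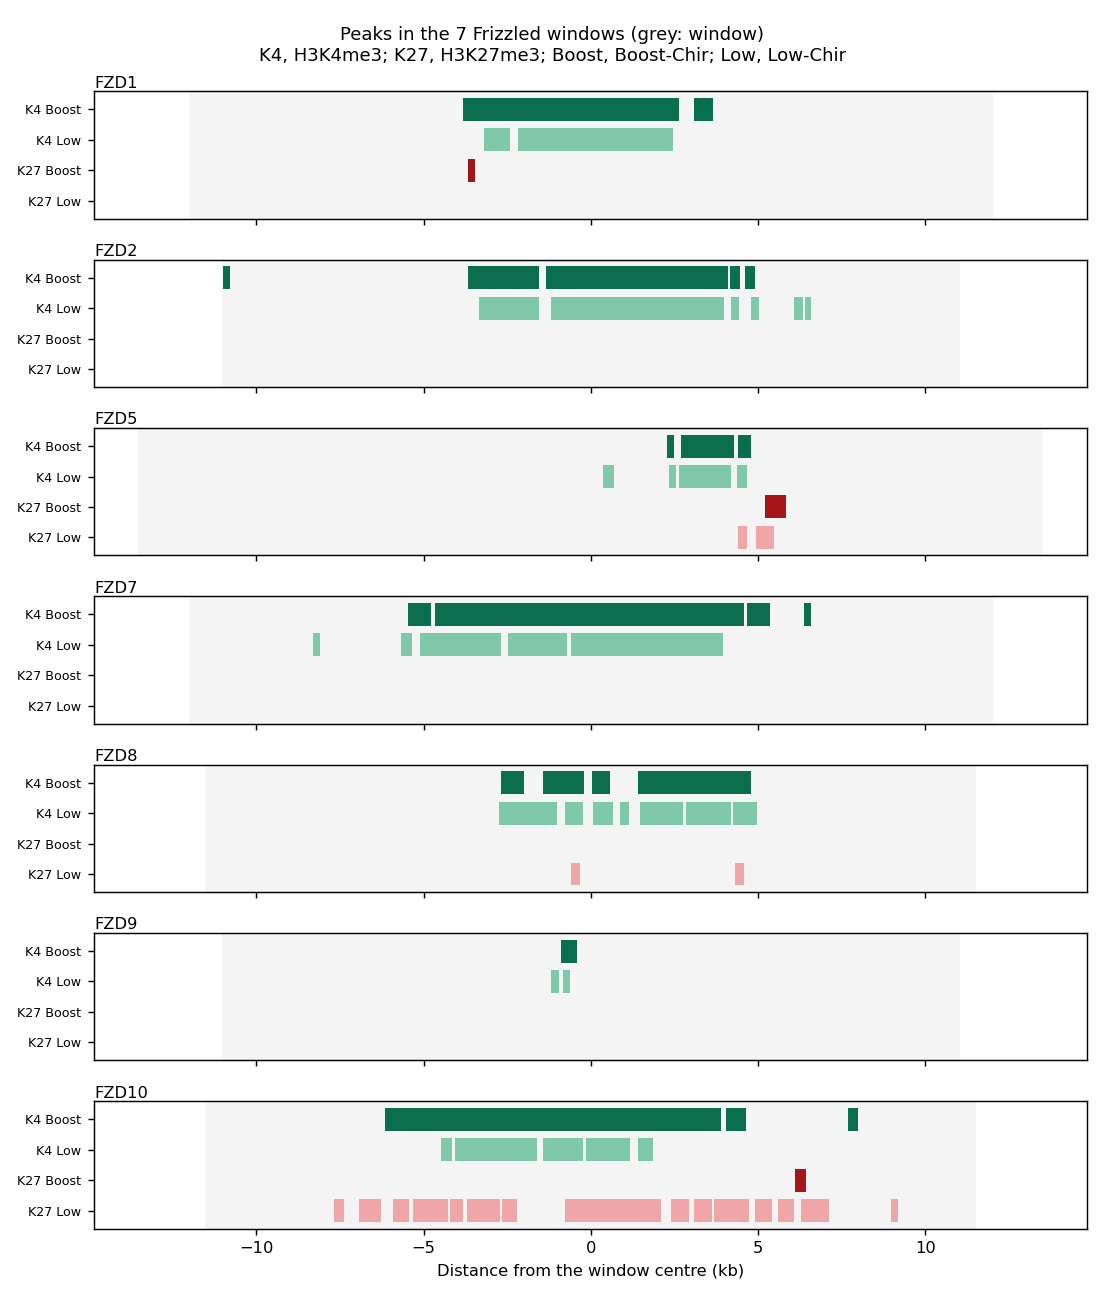
Peaks of the 4 lists in the 7 Frizzled windows, by distance from the window centre in kb, with a lane per mark and culture and grey for the window. FZD10 is the 1 gene with a long row of H3K27me3 peaks, with 1 such peak in Boost-Chir and 15 in Low-Chir.

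FZD10 was the member with the greatest difference in both marks. The receptor is made in the dorsal neural tube of mouse and chick embryos. Its window lies on chromosome 12 at 130637001 to 130660000. H3K4me3 peaks covered 10901 bp of it in Boost-Chir, against 5768 bp in Low-Chir, a ratio of 1.89. H3K27me3 peaks covered 323 bp in Boost-Chir, against 11337 bp in Low-Chir, a ratio of 0.0285. H3K4me3 peaks were longer, and H3K27me3 peaks covered less of the window, in the culture given 7.5 µM CHIR99021.

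The H3K4me3 of FZD10 in Boost-Chir was essentially 1 peak, at 130642355 to 130652377, with a length of 10023 bp and a fold enrichment of 10.7 over the local background. Of the 46793 H3K4me3 peaks in that list, 37 were as long or longer, this one included. Peaks of 603 bp and 275 bp lay beyond it, with fold enrichments of 6.06 and 3.27. In Low-Chir there were 5 shorter peaks between 130644032 and 130650350. Their lengths were 318, 2464, 1214, 1324 and 448 bp, and their fold enrichments were 4.79, 7.73, 7.05, 6.23 and 3.89. All 5768 bp of Low-Chir H3K4me3 lay inside that of Boost-Chir, which covered a further 5133 bp, on both sides and in the gaps. Of those 5133 bp, 3845 bp (74.9%) lay under H3K27me3 peaks in Low-Chir, which covered 49.3% of the whole window.

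H3K27me3 at FZD10 in Boost-Chir was 1 peak of 323 bp, at 130654615 to 130654937, with a fold enrichment of 4.45. In Low-Chir it was a row of 15 peaks spanning 16.9 kb, from 130640825 to 130657697. Their fold enrichments ran from 3.47 to 7.84 with a median of 4.56, and 10 of the 15 had a −log10 q of at least 5. The highest lay at 130644304 to 130644673, and the longest, of 2896 bp, at 130647717 to 130650612 with a fold enrichment of 6.89. The Boost-Chir peak lay in the outer part of this row. The summit of the highest H3K27me3 peak in Low-Chir, at 130644485, lay 73 bp away from the highest H3K4me3 summit in Boost-Chir, at 130644558. Of the H3K27me3 length in Low-Chir, 8065 bp (71.1%) lay under H3K4me3 peaks of Boost-Chir, which covered 47.4% of the whole window.

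**Figure D2:**
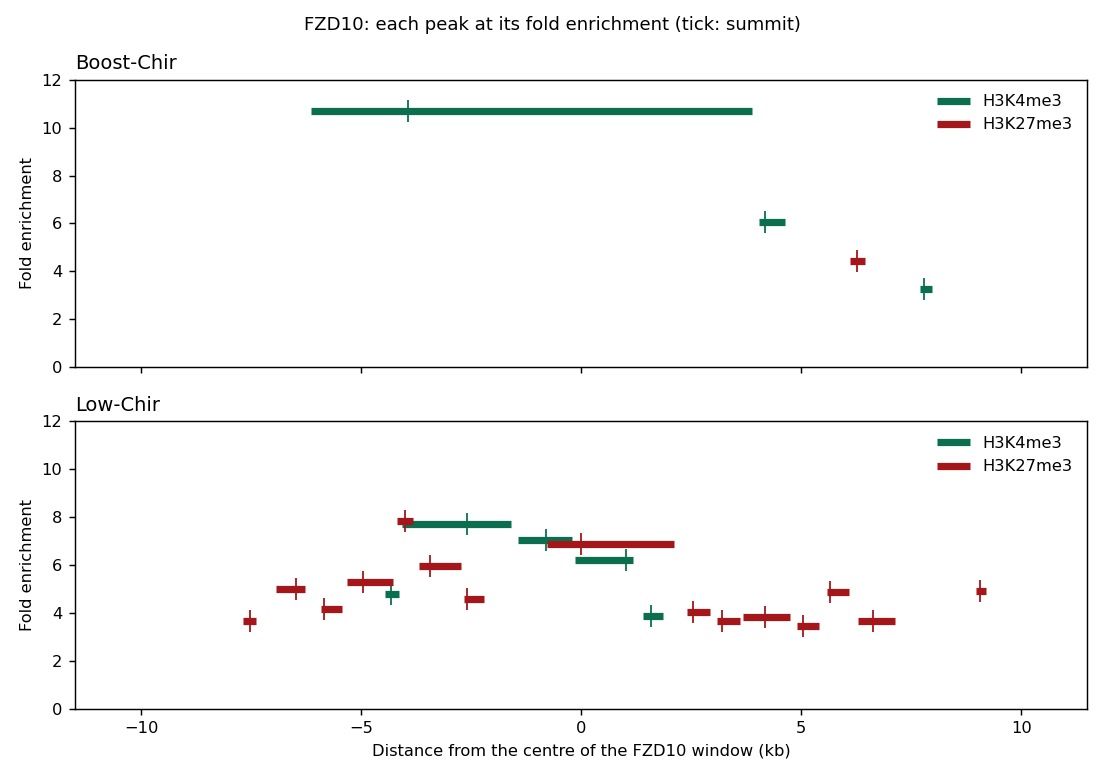
Each peak in the FZD10 window, drawn from its start to its end at its fold enrichment (vertical axis, linear) by distance from the window centre in kb, with ticks at summits, Boost-Chir above and Low-Chir below. In Boost-Chir a single H3K4me3 peak of 10.0 kb stands at 10.7-fold, and in Low-Chir peaks of both marks interleave below 8-fold.

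Both marks overlapped at FZD10 on 0 bp in Boost-Chir, against 4220 bp in Low-Chir, which was 73.2% of its H3K4me3 there. Reads at the highest H3K4me3 summit numbered 54 in Boost-Chir (exact 95% Poisson interval 40.6 to 70.5) and 26 in Low-Chir (17.0 to 38.1). Divided by depth, that is a ratio of 1.72 with an exact 95% interval of 1.06 to 2.86. Over the windows with H3K4me3 in both lists the median of this ratio was 1.08, above the lower end of that interval. Such intervals cover counting error only, not the spread between cultures, and each summit was the highest of its window. For H3K27me3 the numbers were 19 reads in Boost-Chir (11.4 to 29.7) and 32 in Low-Chir (21.9 to 45.2), a ratio of 0.611 per unit of depth (0.327 to 1.11). The H3K27me3 summits lay 10.3 kb apart and the H3K4me3 summits 1.35 kb apart, so neither ratio is a change at 1 site. FZD10 was the 1 member of 7 whose H3K4me3 interval lay above a ratio of 1, against 153 (1.0%) of the 15239 windows with H3K4me3 in both lists. It was also the 1 of 2 genes with H3K27me3 in both lists whose top fold was at least 1.5-fold lower in Boost-Chir, against 4.82% of 3946 windows.

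Among all windows, FZD10 stood far out in both marks by its difference in kb. Its H3K27me3 difference, -11.0 kb (Boost-Chir minus Low-Chir), was exceeded downwards by 7 of the 5136 windows with H3K27me3 in either list. Its H3K4me3 difference of 5.13 kb was exceeded by 60 of 16580 windows. By ratio its H3K4me3 stood out less, since 24.3% of windows were at least 1.5-fold and 500 bp longer. Relative to the median ratio of all windows FZD10 was not called longer, whereas 8.85% of windows were. Covered length at least 1.5-fold and 500 bp greater for H3K4me3 and at least as much smaller for H3K27me3 was found together at FZD10 alone of the 7 genes, and at 6.11% of the 5136 windows. In Boost-Chir, the nearest peaks beyond the window were 106 kb before it and 539 kb after it for H3K4me3, and 111 kb and 534 kb for H3K27me3. Within 50 kb of the window Boost-Chir had 0 peaks of H3K27me3, against 13 in Low-Chir with 3597 bp in all, the nearest of them 5.45 kb before and 2.88 kb after the window. In GRCh38.p14 the preceding gene is the long non-coding FZD10-AS1 and the nearest coding genes are TMEM132D and PIWIL1, so part of the FZD10 window may belong to FZD10-AS1.

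**Figure D3:**
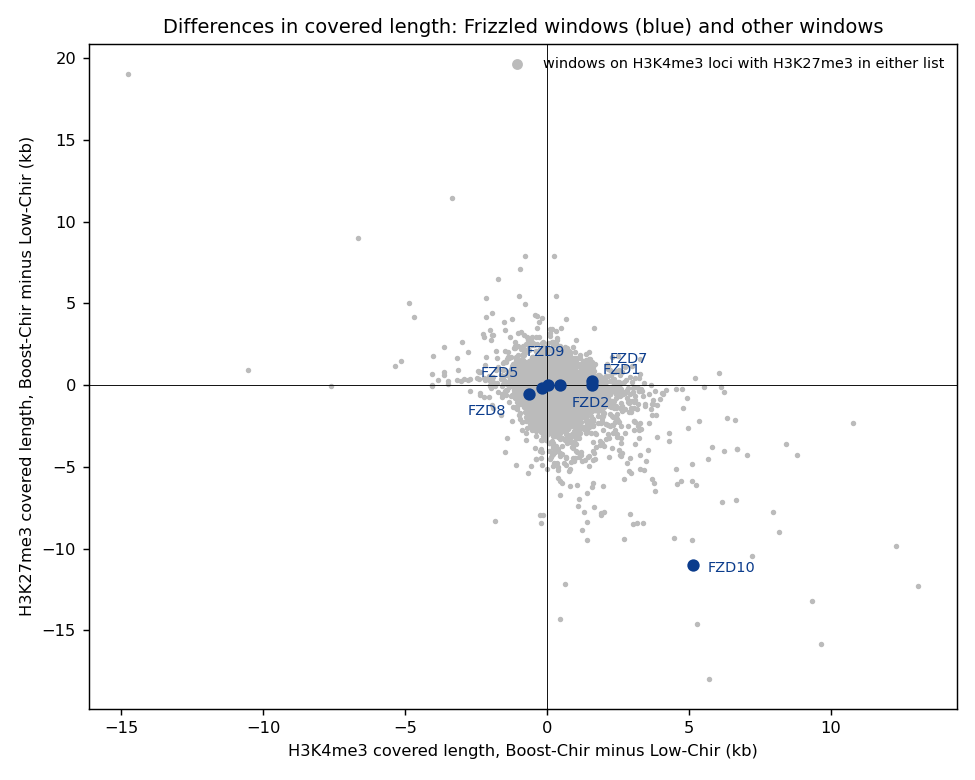
Differences in covered length, Boost-Chir minus Low-Chir in kb, for H3K4me3 (horizontal) and H3K27me3 (vertical), with the 7 Frizzled windows in blue and windows on H3K4me3 loci with H3K27me3 in either list in grey. FZD10 lies at 5.13 and -11.0 kb, and the other 6 genes lie between -0.632 and 1.59 kb horizontally and between -0.521 and 0.233 kb vertically.

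FZD7, the main WNT receptor of human embryonic stem cells, had the longest H3K4me3 of the 7 genes in Low-Chir and, after FZD10, in Boost-Chir. It had no H3K27me3 peak in either culture. Its window lies on chromosome 2 at 202889001 to 202913000. H3K4me3 covered 10818 bp in 4 Boost-Chir peaks and 9248 bp in 5 Low-Chir peaks, a ratio of 1.17 that is below the median of all windows and depends on how gaps between peaks are counted. A single Boost-Chir peak of 9251 bp at 202896327 to 202905577, with 13.2-fold enrichment, stood where Low-Chir had 3 peaks of 2426, 1768 and 4530 bp. The Low-Chir peaks had fold enrichments of 10.8, 10.2 and 8.98. That Boost-Chir peak was among the 49 longest of its list. The summits with the highest fold enrichment lay 4.53 kb apart. The most reads at a summit were 60 in Boost-Chir (45.8 to 77.2), against 36 in Low-Chir (25.2 to 49.8). Per unit of depth the ratio was 1.38 (0.898 to 2.15), an interval that includes 1.

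FZD2, a receptor of the same subfamily known for binding WNT5A, had the strongest H3K4me3 of the 7 genes by fold enrichment in both cultures. Its window lies on chromosome 17 at 42625001 to 42647000. The top fold enrichment was 14.7 in Boost-Chir, against 15.2 in Low-Chir. Covered length was 8373 bp in Boost-Chir, against 7906 bp in Low-Chir. Both cultures had a pair of large peaks with a gap between them. These measured 2145 and 5461 bp in Boost-Chir and 1797 and 5175 bp in Low-Chir. Small peaks of 200 to 292 bp in Boost-Chir and 200 to 275 bp in Low-Chir made up the rest. No H3K27me3 peak lay in the window, and the nearest began 86.4 kb away in Boost-Chir and 85.3 kb in Low-Chir. The ratio of summit reads per unit of depth was 0.843 (0.564 to 1.26), so a difference in height at FZD2 was not detectable at this depth.

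FZD1, which has been studied as a WNT1 receptor in mouse midbrain dopamine neurons, had 6990 bp of H3K4me3 in Boost-Chir and 5399 bp in Low-Chir. Its ratio of 1.29 was close to the median of 1.28 over all windows. The window lies on chromosome 7 at 90884001 to 90908000. In Boost-Chir peaks of 6450 and 540 bp had fold enrichments of 11.1 and 4.52, and in Low-Chir peaks of 761 and 4638 bp had 7.55 and 7.35. The top fold differed by 1.47 times, the greatest ratio among the 7 genes, but reads per unit of depth by 1.15 times (0.734 to 1.82). A lone H3K27me3 peak of 233 bp, with 3.78-fold enrichment and 16 reads, was in the Boost-Chir list and none in the Low-Chir list. It lay at the edge of the H3K4me3, wholly under it.

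FZD5 and FZD8, the subfamily known for roles in eye and anterior neural development in mouse, were the genes whose H3K4me3 was shorter in Boost-Chir. The FZD5 window lies on chromosome 2 at 208617001 to 208644000 and the FZD8 window on chromosome 10 at 35917001 to 35940000. FZD8 had 5820 bp in 4 Boost-Chir peaks and 6452 bp in 7 Low-Chir peaks, a ratio of 0.902. Its difference of -632 bp was exceeded downwards by 614 of 16580 windows. That difference shrank to -0.081 kb with the top 50% of each list and to -0.237 kb with gaps within 3 kb counted. The top fold enrichment was 8.25 in Boost-Chir, against 8.72 in Low-Chir, and the ratio of reads per unit of depth was 1.13 (0.672 to 1.94). Less of the window was covered in Boost-Chir, whereas most windows of the genome had more. H3K27me3 at FZD8 had 0 peaks in Boost-Chir, against 2 in Low-Chir, a difference of -521 bp that barely passes the limit of 500 bp. The Low-Chir peaks, of 277 and 244 bp, lay within the H3K4me3, with 4.05-fold and 3.29-fold enrichment and 16 and 17 reads.

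FZD5 had a main H3K4me3 peak of similar length in both cultures. The main peak measured 1566 bp in Boost-Chir and 1548 bp in Low-Chir, with fold enrichments of 10.7 and 10.5 and summits 130 bp apart. Covered length came to 2181 bp and 2351 bp. Each list held a small H3K27me3 signal. In Boost-Chir it was 1 peak of 628 bp to one side of the H3K4me3, with 5.34-fold enrichment. In Low-Chir it was peaks of 270 and 533 bp, with 4.84-fold and 4.38-fold enrichment. The peak of 270 bp lay mostly under H3K4me3 and the peak of 533 bp to one side. The H3K27me3 signal overlapped H3K4me3 on 0 bp in Boost-Chir and on 249 bp in Low-Chir. The ratio of reads per unit of depth was 0.973 (0.601 to 1.59) for H3K4me3 and 1.03 (0.552 to 1.92) for H3K27me3. Both intervals include 1, and FZD5 was the 1 member besides FZD10 with H3K27me3 in both lists.

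FZD9, a gene of the region deleted in Williams syndrome, had the least H3K4me3 of the 7 genes and no H3K27me3 peak in either list. Its window lies on chromosome 7 at 72838001 to 72860000. H3K4me3 covered 472 bp in 1 Boost-Chir peak with 5.92-fold enrichment and 433 bp in 2 Low-Chir peaks with 5.60-fold and 4.29-fold enrichment. The highest summit held 22 reads in Boost-Chir (13.8 to 33.3) and 17 in Low-Chir (9.90 to 27.2). At this covered length FZD9 stood at the 7.43 percentile of all marked windows in Boost-Chir and the 6.88 percentile in Low-Chir. No H3K27me3 peak lay within the window or within 100 kb of it, the nearest being 176 kb away in Boost-Chir and 175 kb in Low-Chir. In GRCh38.p14 its neighbours are FKBP6 and BAZ1B.

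**Figure D4:**
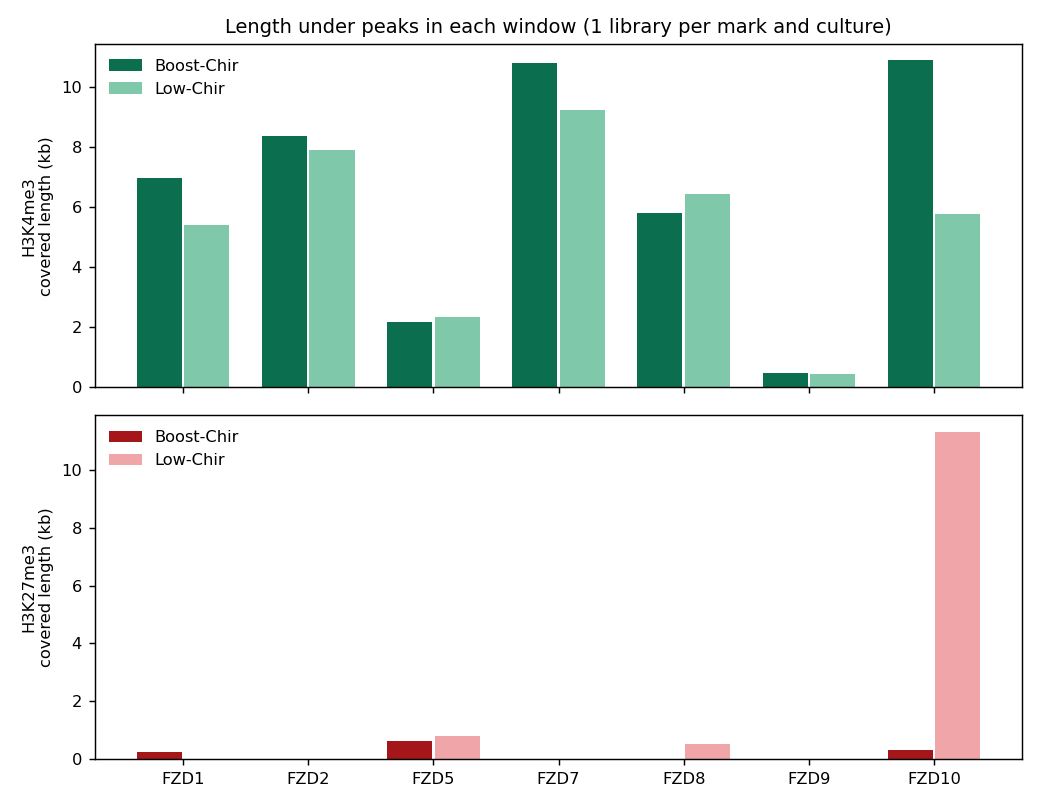
Length covered by peaks (kb, linear axis from 0) in each window for H3K4me3 above and H3K27me3 below, Boost-Chir left of Low-Chir, 1 library per bar. For H3K27me3, FZD10 has 0.323 kb in Boost-Chir, against 11.3 kb in Low-Chir, and this Low-Chir bar exceeds all other H3K27me3 bars, which are at most 0.803 kb.

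Over the 7 genes, H3K4me3 covered length was longer in Boost-Chir at 5 and shorter at 2, against 81.3% of 16580 windows that were longer, a count close to the background. With gaps within 3 kb between peaks counted as covered, it was longer at 2 genes, FZD1 and FZD10, and shorter at 5, against 72.8% of windows longer. That setting turned the direction at FZD2 (-1.13 kb), FZD7 (-0.209 kb) and FZD9 (-0.091 kb). A difference of at least 1.5-fold and 500 bp was called longer at 1 gene, FZD10, against 24.3% of windows, and shorter at 0, against 2.77%. The median ratio was 1.09 over the 7 genes and 1.28 over all windows marked in both cultures. Divided by that general ratio, FZD10 fell short of 1.5-fold and 0 genes were called longer, against 8.85% of windows. A top fold enrichment at least 1.5-fold higher in Boost-Chir was found at 0 genes, against 11.8% of windows. The number of peaks was lower in Boost-Chir at 6 of the 7 genes, all but FZD1, against 32.7% of windows. The 7 windows together held 45.6 kb of H3K4me3 in Boost-Chir and 37.6 kb in Low-Chir. Without FZD10 these lengths were 34.7 kb and 31.8 kb.

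**Figure D5:**
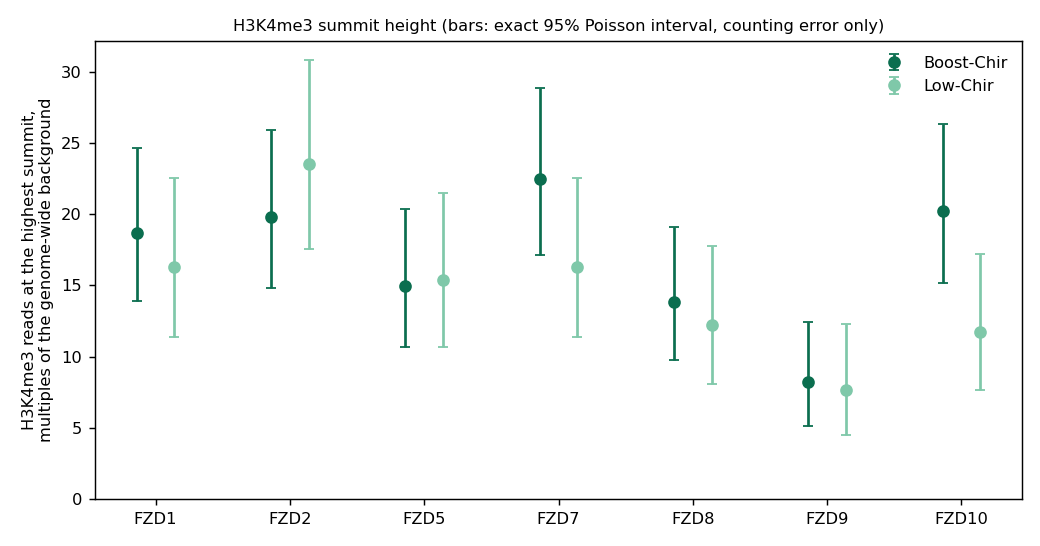
Reads at the highest H3K4me3 summit of each window, as multiples of the genome-wide background of its library (linear axis from 0), Boost-Chir left of Low-Chir, with exact 95% Poisson intervals for counting error. FZD10 stood at 20.2 in Boost-Chir, against 11.8 in Low-Chir, and FZD9 was lowest in both, at 8.23 and 7.69.

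H3K27me3 was found at 3 of the 7 genes in each list, at FZD1, FZD5 and FZD10 in Boost-Chir and at FZD5, FZD8 and FZD10 in Low-Chir. FZD10 held 323 of the 1184 bp in Boost-Chir (27.3%) and 11337 of the 12661 bp in Low-Chir (89.5%), and the other 6 genes had 0.861 kb in Boost-Chir and 1.32 kb in Low-Chir. Covered length was called shorter in Boost-Chir at 2 genes, FZD8 and FZD10, against 20.6% of the 5136 windows with the mark in either list. It was called longer at 0 genes, against 10.8%, and was longer by any amount at 1 gene, FZD1, against 39.2%. Of the 7 genes only 4 had the mark in either list, which leaves little to compare with these shares. FZD2, FZD7 and FZD9 had no H3K27me3 peak in either culture.

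Both marks were present in 3 of 7 windows in Boost-Chir, against 26.0% of all 16580 windows, and in 3 of 7 in Low-Chir, against 26.3%. Peaks of the 2 marks overlapped at 1 gene in Boost-Chir, FZD1 with 233 bp. They overlapped at 3 genes in Low-Chir, with 4220 bp at FZD10, 521 bp at FZD8 and 249 bp at FZD5. The share of all windows with overlapping peaks was not computed, so these counts cannot be read as particular to the 7 genes. Whether overlapping marks sit in the same cell was not measured.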

How the data were processed

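H3K4me3 and H3K27me3 ChIP-seq of day 11 progenitors was used, 1 library per mark and culture. Of the 6 samples, 2 were inputs and served only through the peak calls. The submitters' processing notes name the build hg19 and the tools BWA 0.7.12, Picard and cutadapt 1.6. The peak caller is not given in the sources used here. Peak names in the deposited lists show that the authors called each library alone, against the input of its culture. Each list holds the authors' fold enrichment (a ratio over local background, with no SD or n), a −log10 p-value and −log10 q-value, the summit, and a deposited score that was not used.

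Windows came from the definition of the gene set and could not be checked against an hg19 annotation. The members and lists were chosen with earlier results of these data known. All 7 genes were named by rule, and no other Frizzled gene was examined. Covered length was the union of peaks clipped to the window, counted from an overlap of 1 bp. A difference was called at 1.5-fold and 500 bp. Background windows of 23 kb, the median width, were centred on H3K4me3 loci joined within 3 kb across the genome, and the same measures were taken genome-wide. Reads at summits were solved from the Poisson tail and from fold enrichment, taken as (reads + 1) over (background + 1). For H3K27me3, reads and background in this formula were first scaled, by 0.977 in Boost-Chir and 0.909 in Low-Chir. These factors were found from the lists, and the reads given here are unscaled. For 100% of peaks these reads give back the −log10 p of the authors' list to within 0.001. Depth is the genome-wide background in these reads, 2.67 in Boost-Chir and 2.21 in Low-Chir for H3K4me3, and 3.03 and 3.12 for H3K27me3. It equals relative sequencing depth only if fragments were extended alike. Python 3.11.15, numpy 2.4.6, scipy 1.17.1 and matplotlib 3.10.9 were used, and the code was tested on simulated data.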

Additional observations from a re-analysis of the deposited data

How the results depend on the processing

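No paired analysis was possible because there is 1 library for each mark in each culture, and no replicate could be left out. The difference at FZD10 kept its direction under all 8 alternatives for the peak list, the window, clipping and gaps. It ran from 4.74 to 5.62 kb for H3K4me3 and from -16.6 to -7.26 kb for H3K27me3. In each alternative it passed 1.5-fold and 500 bp. The alternatives for clipping and for peaks at least 50% inside could not change it, since every peak lay wholly inside its window. Widening the window by 5 kb could not change its H3K4me3 part, since no further H3K4me3 peak lay that near. For H3K4me3, 0 genes were called with a 2-fold limit, and 0 with lengths divided by the median ratio of all windows, an alternative chosen after seeing the data. With gaps within 3 kb counted as covered, 2 genes were called, 1 longer (FZD10) and 1 shorter (FZD5). For H3K27me3, 1 gene was called, FZD10, with the top 50% of each list and with a −log10 q of at least 5, since the FZD8 peaks lie below both limits. Genes with both marks numbered 1 in Boost-Chir and 3 in Low-Chir with at least 500 bp of each, and the same with overlapping peaks. With the top 50% of each list, and with a −log10 q of at least 5, they numbered 2 in each culture. The shares of all windows under these rules were not computed. Of 112 values of single genes, 92 stayed within 1.5 times the reported one, and 20 moved further. Part of the 92 was fixed in advance, namely all values under the alternatives for clipping and for peaks at least 50% inside. Widening the windows by 5 kb could likewise change only H3K27me3 at FZD10, where alone further peaks lay that near. The 92 also include H3K27me3 at FZD2, FZD7 and FZD9, where the difference was 0 throughout. The share that stayed is therefore no measure of stability. The H3K4me3 direction turned at 3 genes, all with gaps within 3 kb counted: FZD2 (-1.13 kb), FZD7 (-0.209 kb) and FZD9 (-0.091 kb), none of them called. The cause was not tested. The highest summits, of 16 to 60 reads, limit what can be separated between the cultures.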
